A study of Mus musculus with 4 samples.

Results

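Expression of 10 genes typical of the hormone-secreting cells of the gut was compared in laser-captured mouse Paneth cells. They comprised 5 granins (Chga, Chgb, Scg2, Scg3 and Scg5), 2 prohormone-processing enzymes (Pcsk1 and Cpe) and 3 transcription factors (Neurod1, Isl1 and Pax6). All probe sets that the platform annotation assigns to 1 of these 10 symbols were taken, which gave 17 of the 34945 probe sets with a single gene symbol, and 10 of the 18193 genes so named. Paneth cells sit at the crypt base of the small intestine and secrete antimicrobial proteins. RNA from 2 Atg16-hypomorph and 2 Wildtype samples was amplified and hybridised to 1 array each, with both groups on a mixed C57BL/6 - 129ola background. A hypomorph carries an allele of reduced function, here of Atg16l1, whose product is needed to form autophagosomes. No treatment is named for either group, and age, sex, the number of animals behind each array and the way the allele was made were not given in the sources used here. It was asked how the endocrine secretory genes seen in these captures differed between the groups.

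Enteroendocrine cells are scattered through the crypt and villus epithelium and store peptide hormones in dense-core granules. Granins are acidic proteins that condense with hormones in these granules. Pcsk1 cleaves prohormones after paired basic residues and Cpe then removes the basic residues left at the new ends. Neurod1, Isl1 and Pax6 act in the differentiation of enteroendocrine cells downstream of Neurog3, and enteric neurons also use granins, Cpe and Isl1.

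Values are deposited linear intensities, given for replicate 1 and then replicate 2 of a group, or as its mean ± SD (n = 2). A difference is the hypomorph mean of log2(intensity + 32) minus that of wildtype, so that changes of dim genes come out too small, and p-values are from limma with Benjamini-Hochberg adjustment over all 22519 probe sets tested. No label ties the replicates to separate animals, so the p-values measure spread among these 4 samples only, and that spread may be technical. Atg16l1, the altered gene, read 966.4 and 994.7 in hypomorph against 1335 and 1183 in wildtype, a difference of -0.35 that missed the threshold (adjusted p = 0.102), and a second probe set was too dim to test. The position of the alteration relative to the probes is unknown. All 14 probe sets of the Paneth cell markers passed the brightness filter, with summed intensities of 116434 to 122805 in hypomorph and 117618 to 118411 in wildtype. These sums do not show single genes. Of the 14, 2 were called higher and 0 lower, with 7 positive and 7 negative differences. Mptx1 read 3841 and 3124 against 1954 and 1912 (0.83, adjusted p = 0.00151 in limma), and Reg3g differed by 0.26 (0.0453). Both calls were lost without an intensity trend in the prior (0.059 and 0.272). Xist, transcribed from the inactive X chromosome, read 4462 ± 67.9 in hypomorph against 21.8 ± 5.36 in wildtype, and thus a difference by sex and a difference by genotype cannot be told apart. Of 11 tested probe sets of fat cell markers 11 rose, and of 19 of enterocyte markers 14 rose, where 2.04% of all did. Among the fat cell markers, Cidec (16.9 and 37.9 in wildtype) and Lep (50.6 and 41.6) had wildtype means below the brightness filter. They were thus tested only through their hypomorph values. Without that filter 11 of 15 fat cell probe sets rose, where 0.673% of all probe sets were called in either direction. Summed intensities were 26792 and 25464 against 9439 and 9420 for the fat cell list and 43768 and 46498 against 27087 and 28957 for the enterocyte list. The part of these cells in the values below was not tested.

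Promoters of granin and processing genes are known for binding sites of cAMP-responsive factors. A window of 300 bases, from 250 before to 50 after the transcription start, was found in the RefSeq promoter table (build GRCm38.p6) for 9 of the 10 genes, with 2 windows for Pax6. The 150 bases before the start are printed below for the genes on which the results turn, so that the sites can be compared between a granin that was lower in hypomorph (Chgb), a granin that read higher (Scg2), and the processing enzyme and regulators that read lower. Capitals mark the motif TGACG or its complement CGTCA, which overlap in the palindrome TGACGTCA.
Chga, chr12:102554791-102554940, + strand: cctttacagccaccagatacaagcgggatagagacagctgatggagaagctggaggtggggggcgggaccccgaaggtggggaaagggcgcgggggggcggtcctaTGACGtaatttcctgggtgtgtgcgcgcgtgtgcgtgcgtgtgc
Chgb, chr2:132781492-132781641, + strand: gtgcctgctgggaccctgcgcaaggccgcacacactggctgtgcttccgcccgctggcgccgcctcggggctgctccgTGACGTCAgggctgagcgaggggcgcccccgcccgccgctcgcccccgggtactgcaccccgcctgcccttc
Scg2, chr1:79440027-79440176, - strand: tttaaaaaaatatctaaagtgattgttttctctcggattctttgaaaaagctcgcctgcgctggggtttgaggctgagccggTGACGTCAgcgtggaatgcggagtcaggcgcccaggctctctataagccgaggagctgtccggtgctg
Pcsk1, chr13:75089707-75089856, + strand: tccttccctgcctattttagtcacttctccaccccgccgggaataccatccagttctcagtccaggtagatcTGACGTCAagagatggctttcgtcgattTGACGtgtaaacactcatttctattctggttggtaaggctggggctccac
Neurod1, chr2:79456637-79456786, - strand: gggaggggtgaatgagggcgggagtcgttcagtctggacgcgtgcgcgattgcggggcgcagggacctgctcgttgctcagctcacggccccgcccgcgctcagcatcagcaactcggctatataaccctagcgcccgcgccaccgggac
Isl1, chr13:116309689-116309838, - strand: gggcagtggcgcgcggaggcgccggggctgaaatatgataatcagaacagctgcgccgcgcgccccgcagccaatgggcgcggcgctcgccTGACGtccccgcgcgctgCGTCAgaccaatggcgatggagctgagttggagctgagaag

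The palindrome TGACGTCA stood in 4 of the 10 windows, against 1.79% of 32851 promoter windows of the same length in the table. Its first base lay 72 bases before the start in Chgb, 68 in Scg2, 78 in Pcsk1 and 76 in 1 of the 2 Pax6 windows. The shorter TGACG, on either strand and counting those within the palindrome, stood in 9 of the 10 windows, against 20.8% of all. The exception was Neurod1, whose 300 bases did not hold these letters. The basic helix-loop-helix motif CANNTG stood in 7 of the 10 windows and in 72.3% of all. The motifs were chosen after these windows were read, so the shares describe the windows and do not test for an excess. The 10 windows stand for 9 genes, since Pax6 has 2. These are matches of letters in a window and do not show that a factor binds there.

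Among the granins, Chgb (chromogranin B) fell. Its probe set read 3614 and 3795 in hypomorph against 4749 and 4484 in wildtype, so both hypomorph arrays lay below both wildtype arrays. The mean of 3705 ± 128 was 0.802 times the wildtype mean of 4616 ± 187, a log2 difference of -0.31 (SE 0.07, 95% interval -0.47 to -0.16, adjusted p = 0.0353 in limma). In captured tissue, fewer cells of a type and less RNA per cell cannot be told apart. The call was lost when hypomorph replicate 1 (adjusted p = 0.0774), wildtype replicate 1 (0.228) or wildtype replicate 2 (0.0908) was left out, and it was also lost without the brightness filter (0.12) and without an intensity trend in the prior (0.2). Over these and the other 8 of the 13 alternatives the difference ran from -0.36 to -0.27.

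Chga (chromogranin A), the granin most used as a marker of endocrine cells, read 605.8 and 590.6 in hypomorph against 632.6 and 710.9 in wildtype. The groups did not overlap, but the gap between the nearest arrays of the 2 groups was smaller than the gap between the wildtype arrays. The log2 difference of -0.16 had an interval from -0.43 to 0.11 that included 0 (adjusted p = 0.498 in limma), so neither no change nor a fall as large as that of Chgb lay outside it.

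Scg2 (secretogranin II), the precursor of the peptide secretoneurin, read higher in hypomorph. It measured 114.8 and 96.5 there against 60.8 and 54.9 in wildtype, with both hypomorph arrays above both wildtype arrays. The hypomorph mean of 106 ± 12.9 was 1.83 times the wildtype mean of 57.8 ± 4.16. The log2 difference was 0.61 (SE 0.17, interval 0.24 to 0.99), and it missed the threshold (adjusted p = 0.0776 in limma). Its size depended on the amount added, with 0.85 at a pseudocount of 1 and 0.33 at 4 times 32. It passed when hypomorph replicate 2 was left out (adjusted p = 0.0491) and not when any of the other arrays was. Enteric neurons also express Scg2, so their markers are given beside it. Of the 10 neuron marker probe sets tested 1 rose, where 2.04% of all tested probe sets did, that of the neuropeptide gene Vip (3412 and 4113 against 2271 and 2119, log2 difference 0.76, adjusted p = 0.00199, and 0.0696 without the intensity trend), 9 had a positive difference, and the list median was 0.32. Hand2 (0.54), Nos1 (0.47) and Stmn2 (0.42) did not pass (adjusted p = 0.113, 0.217 and 0.23). The wildtype means of Nos1, Chat (55.6 and 30.4) and 1 Elavl4 probe set (44.1 and 45.7) lay below the brightness filter. These were tested only through their hypomorph values, and the positive differences and the list median include them. The median over all tested probe sets was -0.031. The summed intensity of all 31 neuron marker probe sets was 4533 and 5174 in hypomorph against 3106 and 2981 in wildtype, and without Vip it was 1121 and 1061 against 835 and 861. Their part in the Scg2 values was not tested.

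Scg3 (secretogranin III), which tethers Chga to the granule membrane, read 80.1 and 74.0 in hypomorph against 78.2 and 70.5 in wildtype. The groups overlapped, and the log2 difference of 0.04 had an interval of -0.33 to 0.40 (adjusted p = 0.929 in limma). Scg5, a chaperone of a prohormone convertase, had 1 probe set, which read 31.0 and 49.2 against 32 and 36.8 and lay below the brightness filter. Fitted without the filter, its difference was 0.11 (interval -0.33 to 0.55, adjusted p = 0.843). Of the 5 granins 1 was called, Chgb, while Chga read lower and Scg2 higher on both hypomorph arrays without passing the test, and Scg3 and Scg5 overlapped between the groups. Among all tested probe sets 3.71% were called, and in 51.8% the groups did not overlap.

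**Figure D1:**
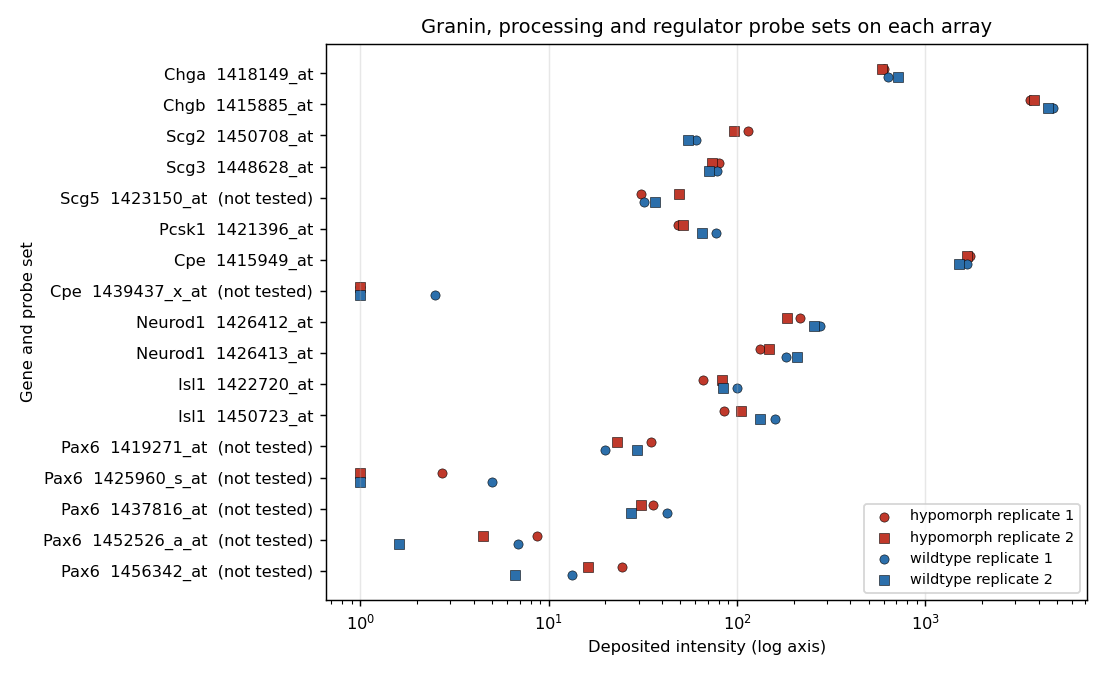
Deposited intensity (log axis) of each of the 17 probe sets on each array, with hypomorph arrays in red and wildtype arrays in blue, circles for replicate 1 and squares for replicate 2. Chgb, Chga, Pcsk1, Neurod1 and Isl1 show both red points left of both blue points. Scg2, the brighter Cpe probe set and 1 Pax6 probe set show them to the right. The 5 Pax6 probe sets lie below 50.

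Both processing enzymes were measured. Pcsk1, the convertase that cleaves many gut prohormones, read 48.5 and 51.6 in hypomorph against 77.4 and 65.5 in wildtype, without overlap. Its mean was 0.7 times the wildtype mean, and the log2 difference of -0.33 (SE 0.17) had an interval of -0.70 to 0.04 (adjusted p = 0.295 in limma). With a pseudocount of 1 in place of 32 the difference was -0.50 and with 4 times 32 it was -0.16, so its size depended on the amount added. Cpe (carboxypeptidase E), which neurons and other cells also express, read 1726 and 1667 against 1661 and 1512. The hypomorph arrays were above the wildtype arrays, but the nearest pair lay closer together than the 2 wildtype arrays, and the difference was 0.10 (interval -0.11 to 0.30, adjusted p = 0.598). Its second probe set was listed at 1.0 to 2.5 on all 4 arrays and was not tested. A fall of Cpe as large as that of Chgb lay outside this interval.

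The transcription factors Neurod1 and Isl1 each had 2 probe sets, and all 4 read lower in hypomorph with no overlap between the groups. Of all tested probe sets 29.9% did so. Neurod1, a basic helix-loop-helix factor of the endocrine lineage, read 215.5 and 184.4 against 276.1 and 256.8 on the first probe set, a mean of 0.751 times wildtype. Its other probe set read 132.8 and 147.8 against 181.3 and 207.6, a mean of 0.721 times wildtype. The log2 differences of -0.37 (interval -0.71 to -0.02) and -0.39 (interval -0.75 to -0.04) were close to each other, and neither passed the threshold (adjusted p = 0.215 and 0.203 in limma). The probe sets measure 1 gene on the same arrays and are not independent replicates.

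Isl1, a LIM homeodomain factor of several hormone-producing cell types and of neurons, read 85.4 and 104.5 against 158.7 and 132.6 on one probe set, 0.652 times wildtype. The log2 difference of -0.49 (SE 0.17, interval -0.87 to -0.10) did not pass the threshold (adjusted p = 0.152 in limma). The other Isl1 probe set read 65.8 and 83.0 against 100.4 and 84.3, where 1 hypomorph and 1 wildtype array almost met, and its difference was -0.23 (interval -0.62 to 0.16, adjusted p = 0.5). Pax6, a paired-box factor needed for proglucagon expression, had 5 probe sets, all below the filter, with no reading above 42.4. Of these 4 overlapped between the groups. The fifth read 24.4 and 16.1 against 13.3 and 6.6, with a difference of 0.32 in the fit without the filter (interval -0.02 to 0.66, adjusted p = 0.389), while the other 4 lay between -0.05 and 0.10.

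**Figure D2:**
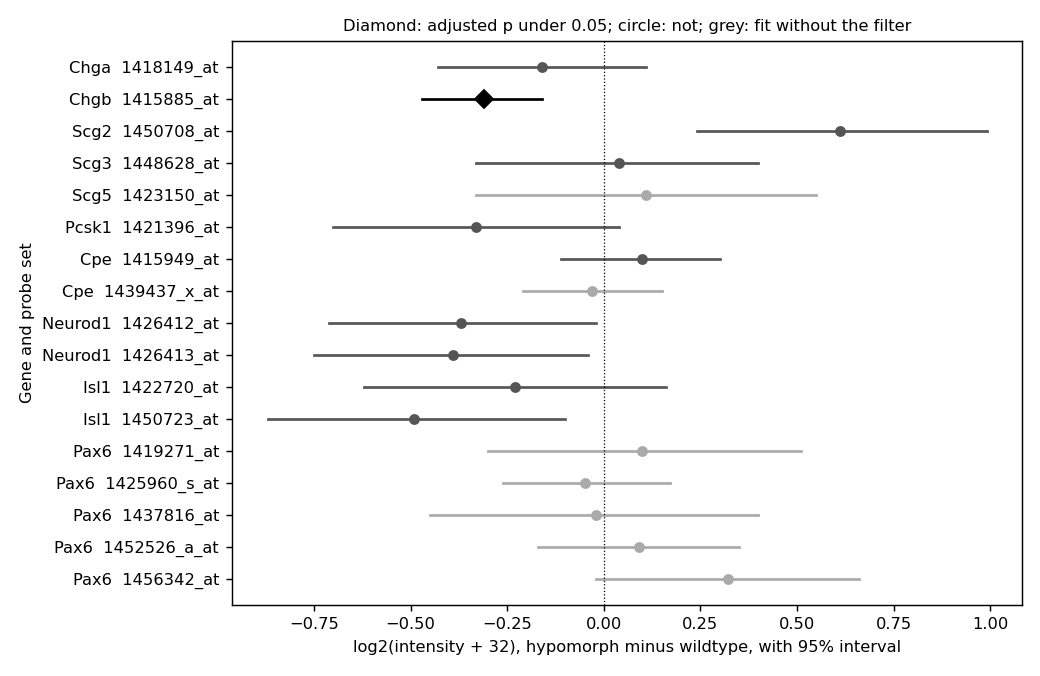
Log2 difference, hypomorph minus wildtype, of each probe set with its 95% interval from limma; grey points lay below the brightness filter and come from the fit without it. The Chgb diamond at -0.31 is the 1 point past the threshold, and Scg2 at 0.61 lies farthest from 0.

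In all, 10 probe sets of 8 genes passed the brightness filter, and all 10 did so on the mean of either group alone. Of them 1 was called, Chgb in the lower direction, against 3.71% of all probe sets tested (1.67% lower and 2.04% higher). Without the filter 0 of the 17 were called by limma, where 0.673% of all 45037 probe sets were. At an unadjusted p under 0.05 there were 4 lower and 1 higher among the 10, against 11.5% and 9.03% of all tested probe sets (20.5% in either direction). In 7 both hypomorph arrays lay below both wildtype arrays and in 2 above, where 29.9% and 21.8% of all tested probe sets did so (51.8% in either direction). Neurod1 and Isl1 have 2 probe sets each among the 10, so these are not counts of independent genes. The median difference was -0.27 over the 10, beside -0.031 over all tested probe sets, and 7 of the 10 differences were negative against 56% of all. Neither quantile normalisation nor median centring turned the sign of any of the 10. A negative median was not particular to the endocrine genes. The tuft cell list had a median of -0.31, with 9 of 10 tested probe sets (3 genes) negative. Among them Avil (51.9 and 38.3 in hypomorph) had a hypomorph mean below the brightness filter and was tested only through its wildtype values. The crypt stem cell list had -0.22, with 11 of 13 negative. The Paneth and goblet cell lists had medians of 0.01 and 0.06, with 7 of 14 and 5 of 12 negative.

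Genes around these in the endocrine programme were counted from lists of related genes. Of 11 tested hormone and amine probe sets 3 fell and none rose, where 1.67% and 2.04% of all tested probe sets did. The list median was -0.04. Gip read 72.0 and 47.3 against 171.4 and 158.4, the tachykinin gene Tac1 read 1769 and 1960 against 2892 and 2514, and the proglucagon gene Gcg read 1981 and 2177 against 3098 and 2892. Their log2 differences were -1.12, -0.53 and -0.52 (adjusted p = 0.00984, 0.0161 and 0.00879 in limma). The call of Tac1 was lost without wildtype replicate 1 (adjusted p = 0.093), and none of the 3 was called without the brightness filter (0.072, 0.0851 and 0.0519). Without the intensity trend Gip alone kept its call, with 0.116 for Tac1 and 0.0991 for Gcg. Cck, which read 771.5 and 702.4 against 876.7 and 852.7, did not pass (-0.22, adjusted p = 0.293), and Pyy overlapped between the groups (-0.04).

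Other granule and processing genes were tested with 19 probe sets of 12 genes. Of these 0 were called by limma, where 3.71% of all tested probe sets were, and at an unadjusted p under 0.05 there was 1, that of Slc18a1, the monoamine transporter of endocrine granules (329.9 and 391.8 against 492.5 and 451.4, difference -0.36, interval -0.68 to -0.05, adjusted p = 0.185). The list median was 0.18, with 14 positive and 5 negative differences. Resp18 (0.31), the calcium sensor Scgn (0.27) and Dner (0.25) had positive differences and did not pass (adjusted p = 0.32, 0.393 and 0.417). The wildtype means of Resp18, Snap25 (44.4 and 41.9) and 1 Syp probe set (51.6 and 41.0) lay below the brightness filter. These were tested only through their hypomorph values, and their differences are among the positive ones. The hypomorph mean of Cplx2 (41.4 and 53.2, difference -0.16) lay below the filter, so Cplx2 was tested only through its wildtype values. The median over all tested probe sets was -0.031.

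Among 14 tested probe sets of other transcription factors of the lineage, 1 rose and none fell, where 2.04% and 1.67% of all did. The riser was Neurod2, a relative of Neurod1 best known from neurons, at 314.8 and 210.0 against 67.0 and 86.7 (difference 1.42, adjusted p = 0.00445 in limma), while its other 2 probe sets were below the filter. The motor neuron and pancreas factor Mnx1 read 36.2 and 36.7 against 72.1 and 88.9 (-0.71, adjusted p = 0.0502), and the zinc finger factors St18 (-0.66, adjusted p = 0.0801), Myt1 (0.62, adjusted p = 0.112) and Insm1 (-0.44, adjusted p = 0.187) also missed the threshold. The hypomorph mean of Mnx1 lay below the brightness filter, so Mnx1 was tested only through its wildtype values. Neurog3, which starts endocrine commitment, had a difference of -0.02 with an interval of -0.29 to 0.25. The list median was -0.13, and 10 of 14 differences were negative.

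**Figure D3:**
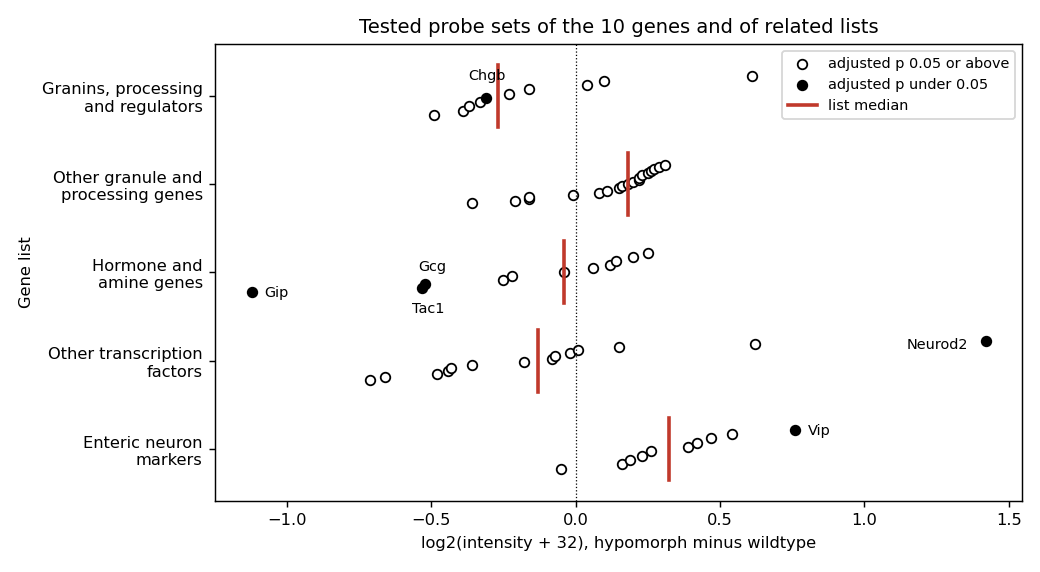
Log2 differences, hypomorph minus wildtype, of every tested probe set in 5 lists, with filled points for an adjusted p under 0.05 in limma and red bars for list medians. The medians are -0.27, 0.18, -0.04, -0.13 and 0.32 from top to bottom, and Neurod2 at 1.42 and Gip at -1.12 lie at the extremes.

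The position of each gene was set beside its neighbours. For each gene the 10 tested genes on either side were taken in RefSeq order, and 4.23% of all 11577 tested genes were called. Of 20 neighbours, 0 were called around Chgb, Neurod1 and Pax6 on chromosome 2 and around Cpe on chromosome 8. Scg2 lies on chromosome 1, as does Atg16l1, with 34 tested genes between them, of which 3 were called. Its 2 called neighbours were the nearest tested genes on 1 side. Ap1s3, an adaptor subunit, read 845.1 and 912.0 against 551.4 and 535.6 (0.66, adjusted p = 0.0131 in limma), and Wdfy1 read 1923 and 1869 against 1180 and 1226 (0.64, adjusted p = 0.00373). The part of the region in the Scg2 values was not tested. Next to Pcsk1 on chromosome 13, Cast, the calpain inhibitor, fell (664.0 and 736.5 against 1071 and 1130, -0.63, adjusted p = 0.0137), a call lost without wildtype replicate 2 (0.0621), and Arsk, at the fifth place on the other side, fell by 1.07. Around Isl1, on the same chromosome, 4 were called, of which Tmem267, Ccl28 and 4833420G17Rik fell and Gzma rose. Around Chga 2 rose, Ifi27l2a and Ifi27, which share similar sequence, and around Scg3 Elovl5 fell. Around Scg5 Spred1 fell and Slc5a12 rose, the latter tested only through hypomorph, since its wildtype mean of 39.6 lay below the brightness filter. Of these, the calls of 4833420G17Rik (adjusted p = 0.0728 without hypomorph replicate 1 and 0.0867 without wildtype replicate 1), Spred1 (0.159 without wildtype replicate 1) and Elovl5 (0.147 and 0.127 without wildtype replicates 1 and 2) were lost when an array was left out. Of all 13 neighbour calls 10 were lost without the intensity trend and 5 without the brightness filter.

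**Figure D4:**
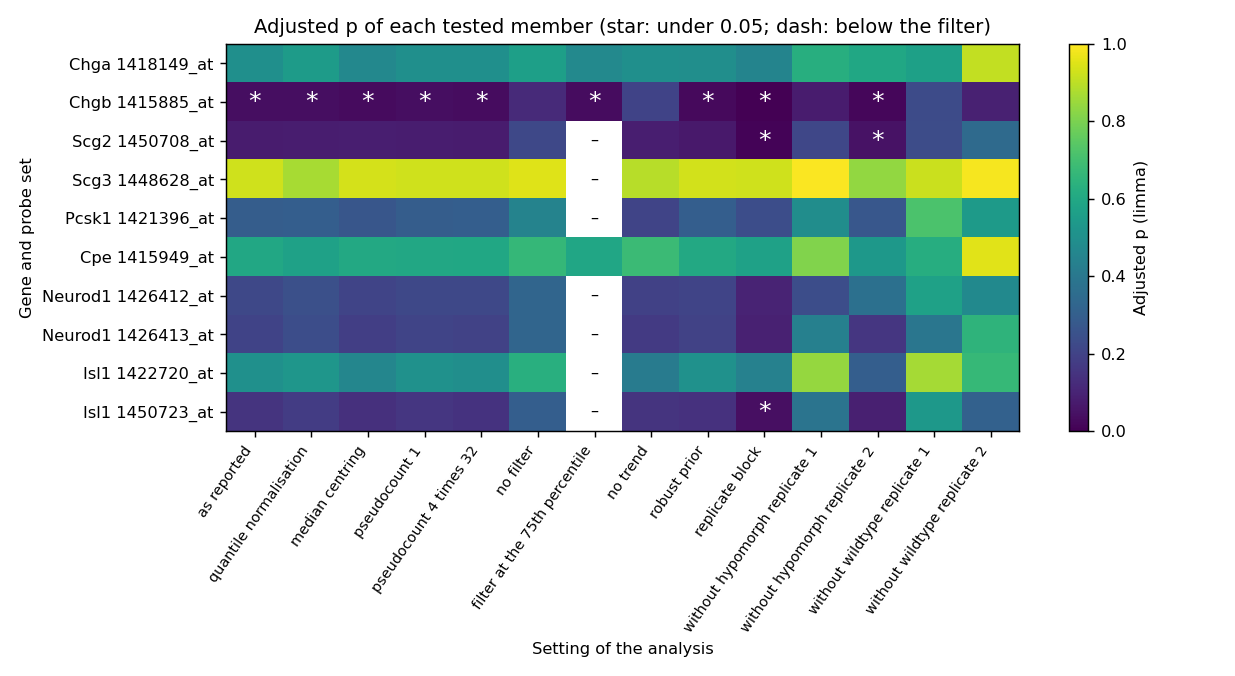
Adjusted p from limma of each tested probe set (rows) in the reported fit and in 13 alternatives (columns), with a star under 0.05 and a dash where the probe set lay below the filter of that setting. Chgb has a star in the reported fit and in 8 alternatives, Scg2 in 2, and 1 Isl1 probe set with the replicate block alone.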

How the data were processed

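The authors deposited 1 linear intensity per probe set and array; the background correction, probe summary and scaling behind it were not given in the sources used here. PicoPure extraction was followed by RiboAmp Plus amplification and biotin labelling, per the labels' protocols. No further scaling was applied, since the arrays' means, with the outer 2% on either side removed, lay within 1.02 times of each other. Of 45101 probe sets 64 controls were left out, and genes were named from the platform annotation where it gave 1 symbol.

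Intensities were taken as log2(intensity + 32), and probe sets whose mean was below the median (6.32) were not tested, which kept 22519. limma 3.58.1 in R 4.3.3 was fitted with group as the only term and an intensity trend, on 2 residual and 7.81 prior degrees of freedom. Tests were two-sided, with calls at an adjusted p under 0.05. Precision is limited by the number of arrays.

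The genes and lists were chosen with earlier results of these data known. All probe sets of the 10 genes are reported, and from each related list at most 4 genes are named, called ones first by size and then those of smallest p. A few more list genes (Pyy, Insm1 and Neurog3) were named after their values were seen. The promoter motifs were chosen after the windows were read. RefSeq gene order came from assembly GRCm38.p6, in which 11533 of 11577 tested genes were placed. The alternatives were quantile normalisation, median centring, other pseudocounts and filters, no trend, a robust prior, a replicate block, and each array left out in turn.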

Additional observations from a re-analysis of the deposited data

How the results depend on the processing

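Over 13 alternatives, 113 of 123 values of the 10 tested probe sets kept their direction and side of the threshold, 5 lost a call (all Chgb), 3 gained one (Scg2 in 2 and Isl1 in 1) and 2 turned sign (Scg3). Scg3 ran from -0.015 to 0.09 with each array left out, with -0.003 without hypomorph replicate 1 and -0.015 without wildtype replicate 2. Of these probe sets 0 were called by limma without the filter, 0 without the trend, and 0 to 2 with each array left out. Of all probe sets 303, 323 and 500 to 1648 were called in those settings. With the filter at the 75th percentile, which tests fewer, 556 were called. At an unadjusted p under 0.05 in limma, 5 of these probe sets passed without the filter and 6 without the trend. The share of all probe sets at that level is not given for either setting, so no excess is read from these counts. In the reported fit that share was 20.5%. With the replicate block 3206 of all probe sets, 3 of the 10 (Chgb, Scg2 and 1 of Isl1) and 63 of the 151 related-list probe sets were called, against 836, 1 and 39. Replicate differences correlated at 0.26 between groups, but with 2 pairs the arrays share only a number. Where no cause is given, it was not tested. Leaving out an array leaves its group with 1, whose spread is taken from the other group. Pcsk1, Scg2, Scg3 and the dimmer Isl1 probe set read near the filter, where the added 32 shrinks differences. The difference of that Isl1 probe set was -0.31 at a pseudocount of 1 and -0.12 at 4 times 32. The other Isl1 probe set had -0.61 and -0.30.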
